A study of Bos taurus with 15 samples.

Results

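Engineered meniscal tissues held on posts were compared with tissues from molds without post anchors, in the piece of tissue next to the posts. The comparison rests on 6 of the 15 libraries of the study: 3 from the anchored post region and 3 from the unanchored post region, chosen by their labels alone. All libraries were made from bovine meniscal fibrochondrocytes, and the series title places the tissues in 3D printed multipart molds. The other 9 libraries came from the middle region of both kinds of molded tissue and from cells in collagen without a mold, with 3 libraries in each group. Every tissue, the unanchored ones included, spent 3 days in growth medium with 10% serum. A further 25 days followed in a chondrogenic medium with 50 µg/ml ascorbic acid, 1e-07 M dexamethasone and 10 ng/ml TGF-β3, up to day 28. The labels name no cell strain, number of donors or number of molds. Tissues were cut into regions and each region into smaller pieces before RNA extraction, and the labels do not say whether the 3 libraries of a group came from separate tissues. The p-values below set the difference between groups against the spread between libraries of the same group, estimated over all 15 libraries. Part of that spread may therefore be technical.

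The meniscus is a fibrocartilage. Its cells, the fibrochondrocytes, make a fibrous network of type I collagen together with cartilage components such as type II collagen and aggrecan, and the collagen bundles that run around its rim are tied to bone at the horns. Cells in a collagen gel pull on it and shrink it, and an anchor that resists this pull keeps the gel under tension. Tension on cells is classically linked to contractile genes driven by serum response factor, to focal adhesion proteins and to the targets of YAP and TAZ, while TGF-β3 and dexamethasone promote cartilage matrix genes.

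Depth in the 6 post libraries ran from 4970209 to 7415701 counts, against 2060781 to 7415701 over all 15. The libraries were primed at the poly-A tail, so counts describe the level of a gene relative to the library's total (counts per 1000000, CPM, scaled here with TMM factors that equalise the bulk of genes) and do not rank genes per length. Mitochondrially encoded genes took 1.29% to 1.63% of counts. Log2 CPM of same-group libraries correlated with Pearson's r of 0.984 to 0.990 across genes, and that of libraries from different groups with r of 0.985 to 0.990. Anchored library 2 and unanchored library 3 stood apart from the rest. On the first principal component, which held 29.6% of the variance, anchored library 2 scored -25.6 and the other 5 libraries between -4.05 and 12.3. On the second component, with 23%, unanchored library 3 scored -22.7 and the others between -7.03 and 12.1. Of 7647 genes with a mean of at least 10 CPM, anchored library 2 was more than 1.5 times above all 5 others in 10 and as far below all 5 in 33. Unanchored library 3 was above in 2 and below in 33, and no other library exceeded 3 in either direction. For the genes and lists below that depended most on single libraries, values without them are also given.

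Some genes typical of fibrochondrocytes were present in all 6 libraries. COL1A1 was at 6045 to 10965 CPM and COMP at 369 to 772 CPM. SOX9 was at 114 to 136 CPM and COL2A1 at 19.5 to 78.4 CPM. Other cartilage matrix genes of the list were near 0 over the 6 libraries. MATN1 and MATN3 had 1 count each, CNMD 0, SNORC 4, MATN4 7, EPYC 10 and COL9A3 19. Several markers that define blood vessel and blood cells were near 0, but not all of those listed. The endothelial genes PECAM1, CDH5 and VWF had 4 counts each over the 6 libraries, the pericyte gene RGS5 had 1 and MCAM had 0, and the leukocyte gene PTPRC had 10. Of 13 endothelial genes, 2 passed the filter on low counts, FLT1 and ERG. Summed levels of lists are over all members, tested or not, and without the TMM factors. The endothelial sum was 69.9 to 84.8 CPM in the anchored and 80.3 to 86.9 CPM in the unanchored libraries. FLT1 itself was at 3.66 to 5.19 CPM. Of 16 leukocyte and macrophage genes, 5 passed the filter on low counts. The summed level of the whole list was 17.3 to 26.4 CPM in the anchored and 17.5 to 19.6 CPM in the unanchored libraries. The gene COL10A1, which marks hypertrophic cartilage, had 4 counts, while SPP1, osteopontin, a gene of bone and of many other cells, was at 1075 to 1317 CPM in the anchored and 1316 to 1775 CPM in the unanchored libraries. Of 9 adipocyte genes 3 were tested. The summed level of the whole list was 319 to 510 CPM in the anchored and 357 to 409 CPM in the unanchored libraries. Most of it was FABP4, a fatty acid carrier, at 294 to 501 CPM, and the adipocyte hormone LEP had 0 counts. In bulk RNA, fewer cells of a type and less RNA per cell cannot be told apart.

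No gene passed the test between the anchored and the unanchored post region. Of 11834 genes tested with edgeR's quasi-likelihood test, 0 (0%) passed a Benjamini-Hochberg adjusted p of 0.05, and the smallest adjusted p was 0.99999. At an unadjusted p under 0.05 there were 454 genes (3.84%), of which 242 (2.04%) were higher and 212 (1.79%) lower in the anchored libraries. DESeq2 and limma-voom also called 0 genes, with 243 and 460 at an unadjusted p under 0.05. With no filter on low counts, edgeR called 21 of 21304 genes, CNN1 and THBS4 among them, in a fit whose prior degrees of freedom were infinite and left no weight to a gene's own spread. The 3 anchored libraries lay entirely above the 3 unanchored ones for 590 genes (4.99%) and entirely below for 513 (4.33%), together 9.32% of genes. These shares are the background against which each gene group below is read.

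The spread between libraries also sets how large an undetected difference could be. Among the 7647 genes with at least 10 CPM, the median standard error of the log2 fold change was 0.13. The 95% interval stayed inside a 2-fold difference for 7621 of them (99.7%) and inside 1.5-fold for 7119 (93.1%). The estimated change was under 0.28 on the log2 scale for 95% of these genes, and 1 row exceeded 1 in size, a ribosomal RNA row with a log2 fold change of -1.13. Ribosomal RNA rows together took 0.291% of counts in unanchored library 2, 0.0402% in anchored library 2 and 0.0782% to 0.0944% in the other 4. The same fit to all 15 libraries called 227 genes (1.92%) between post and middle in anchored tissue and 53 (0.448%) in unanchored tissue. Those comparisons set post libraries against middle libraries.

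**Figure D1:**
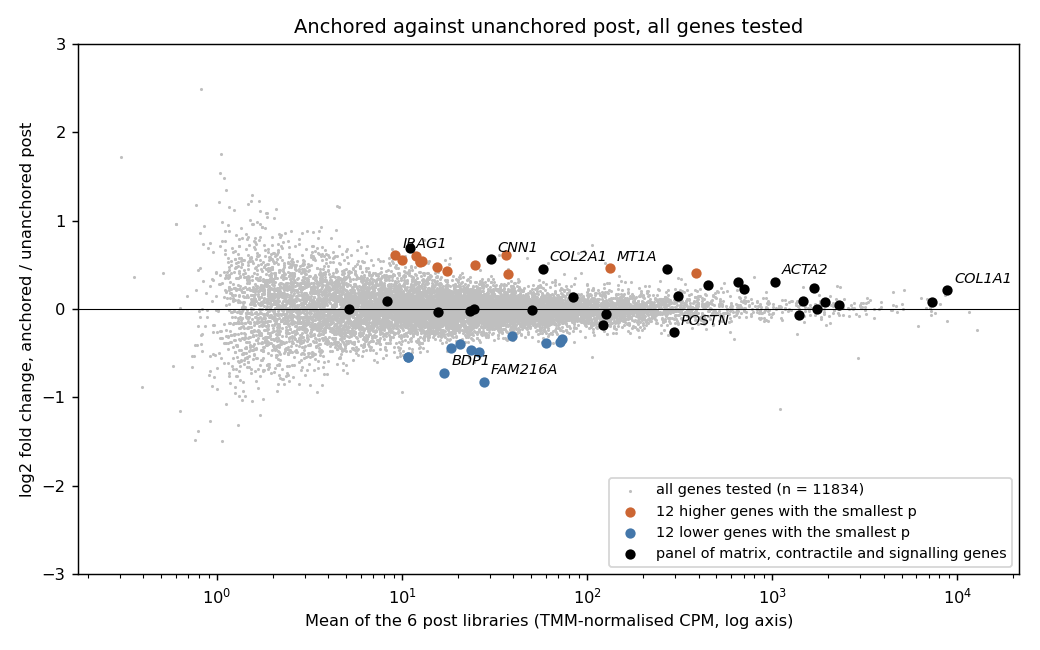
Log2 fold change of each of the 11834 genes (vertical axis, anchored over unanchored post) against its mean level in the 6 post libraries (horizontal axis, TMM-normalised CPM on a log axis); coloured points are the genes chosen by smallest p and black points the panel genes. The cloud narrows with level, and no point is a called gene.

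Cartilage matrix genes showed no difference that passed the test, and their anchored and unanchored libraries overlapped throughout. Of 22 genes of the list, 14 were tested: 0 were called, 0 were apart in either direction and the median log2 fold change was 0.08, against 0.00 for all genes. Members ran from -0.26 for CILP to 1.72 for COL9A1, and the 95% interval stayed inside a 2-fold difference for 11 of the 14. No member, COL9A1 included, had an unadjusted edgeR p under 0.05. For COL2A1, the fibril collagen of hyaline cartilage, the unanchored libraries held 59.7, 65.9 and 19.5 CPM and the anchored libraries 66.4, 78.4 and 55.0. Unanchored library 3 was lowest by a wide margin and the other 5 intermingled. The log2 fold change was 0.46 (SE 0.39, 95% interval -0.35 to 1.27), and 0.080 without unanchored library 3. For ACAN, the core protein of aggrecan, levels were 97.1, 95.2 and 46.9 CPM without anchors and 99.4, 63.6 and 98.9 CPM with anchors. Here the lowest library of each group was the one that stood apart on the principal components, and the log2 fold change was 0.13 (SE 0.27).

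COMP, a pentameric protein that binds collagen fibrils, measured 658, 717 and 369 CPM in the unanchored and 772, 624 and 764 CPM in the anchored libraries. Its groups overlapped through anchored library 2, and its log2 fold change was 0.31 (SE 0.29), or 0.067 without unanchored library 3. SOX9, the transcription factor that drives these genes, had close values, at 136, 132 and 118 CPM against 125, 114 and 134 CPM, with a log2 fold change of -0.05 (95% interval -0.26 to 0.16). HAPLN1, the link protein that fastens aggrecan to hyaluronan, was at 0.01 (SE 0.15) and COL11A1 at -0.03 (SE 0.13). PRG4, the boundary lubricant lubricin, measured 157, 137 and 93.6 CPM without anchors and 98.2, 140 and 103 CPM with them. Values of PRG4 were interleaved, with a log2 fold change of -0.19 (SE 0.18). They were not whole counts in libraries that held 81% of its counts, which leaves its level uncertain.

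The sign of the median of the cartilage matrix list depended on unanchored library 3. Over this list the library's median log2 ratio to the other 5 was -0.55, with 0.19 for unanchored library 2 as the highest. Without unanchored library 3, 5 of the 14 genes were higher in the anchored group in place of 11, and the list's median log2 fold change was -0.06. ACAN then stood at -0.14. Leaving out anchored library 1 instead gave 7 of the 14 above 0 and a median of 0.0064. Leaving out anchored library 2 gave 8 above 0 and a median of 0.042. The part of these libraries in the full comparison was not tested.

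**Figure D2:**
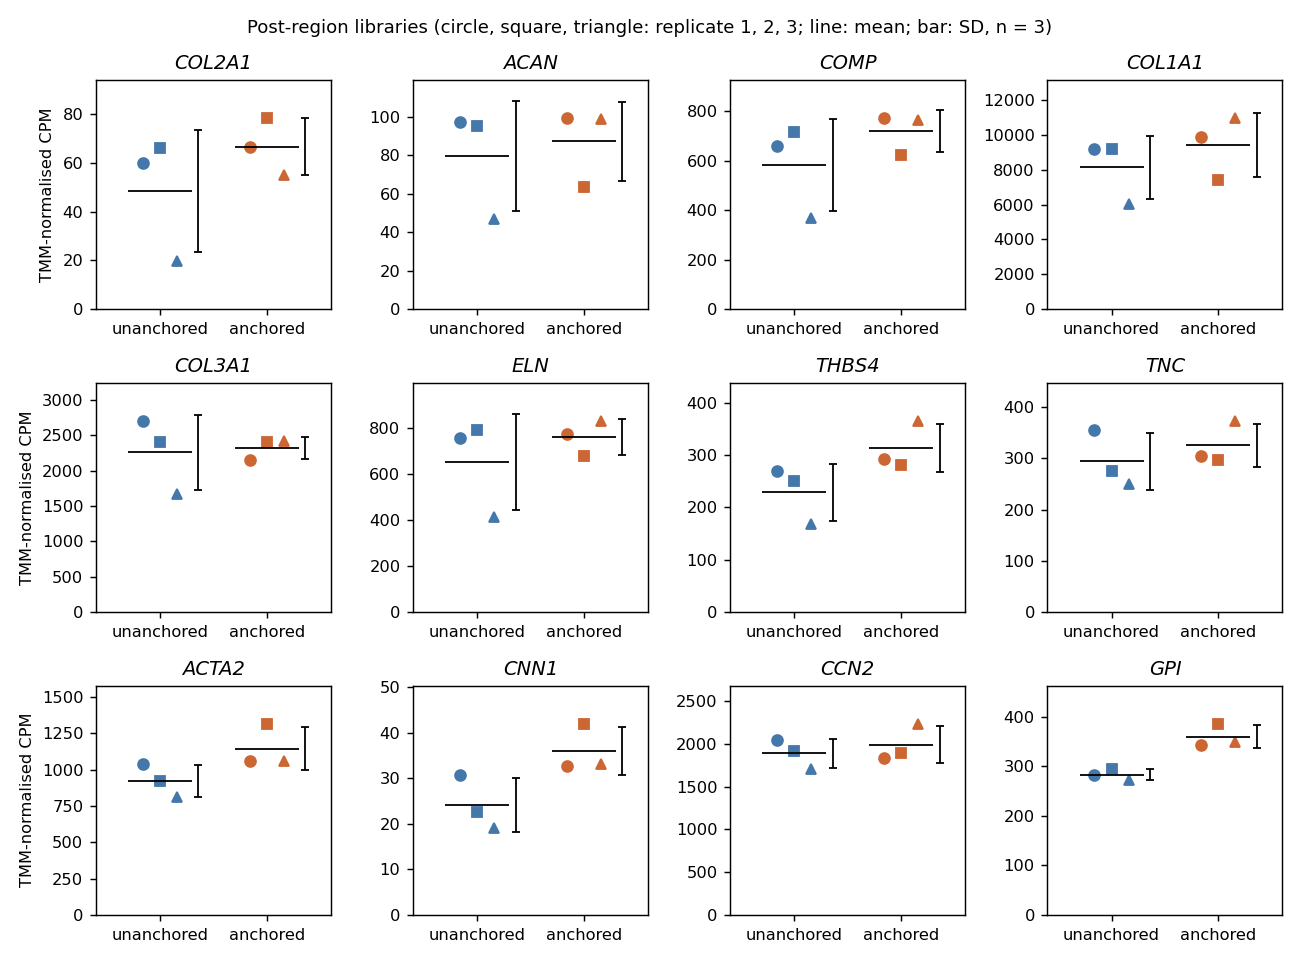
TMM-normalised CPM (vertical axes, from 0) of 12 genes in the 3 unanchored (blue) and 3 anchored (orange) post libraries; lines are means, bars are SD with n = 3, and marker shape gives the replicate. Unanchored library 3 (triangle) is the lowest of its group in all 12 plots, while ACTA2, CNN1, GPI and THBS4 do not overlap between groups.

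Fibrous collagens were abundant, and none of them passed the test. Of 17 collagens in the list, 15 were tested, 0 were called and 1 was apart. The number above 0 was 10, but 5 without unanchored library 3 or without anchored library 3, and 14 without anchored library 2. COL1A1 measured 9202, 9175 and 6045 CPM in the unanchored and 9873, 7417 and 10965 CPM in the anchored libraries. The groups overlapped, with the low value of each again in the library that stood apart, and the log2 fold change was 0.21 (95% interval -0.21 to 0.63). It was 0.036 without unanchored library 3 and 0.35 without anchored library 2. COL3A1, which forms thin fibrils with type I collagen, stood at 2704, 2404 and 1669 CPM against 2145, 2407 and 2422 CPM. Its log2 fold change was 0.04 (95% interval -0.30 to 0.38). Values were not whole in libraries with 61% of the counts of COL1A1 and 46% of those of COL3A1, which leaves both levels uncertain.

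The log2 fold change of COL6A1, a chain of the pericellular beaded filaments, was 0.00 (SE 0.15), and COL12A1, a fibril-associated collagen of tendon and ligament, one of 0.09 (SE 0.14). COL5A1, which sets fibril diameter, was at 148 CPM in anchored library 2 and at 218 to 309 CPM in the other 5, with a log2 fold change of -0.27 (SE 0.25). COL8A2, a short-chain collagen, was the collagen whose libraries did not overlap. It measured 15.4, 15.0 and 15.7 CPM without anchors and 19.1, 16.1 and 21.9 CPM with them, a log2 fold change of 0.32 (SE 0.16) that did not pass the test.

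Enzymes that process and crosslink collagen had a median log2 fold change of 0.09, with 17 of 21 tested members above 0 and 0 called. The number apart in the higher direction was 2, against 4.99% of all genes. The median was 0.021 with 12 above 0 without anchored library 3, and 0.028 with 14 above 0 without unanchored library 3. PLOD1, a lysyl hydroxylase, measured 59.7, 61.4 and 51.5 CPM in the unanchored and 63.9, 77.8 and 70.9 CPM in the anchored libraries. Its groups did not overlap, at a log2 fold change of 0.30 (SE 0.18). LOX, the enzyme that starts collagen and elastin crosslinks, was at -0.07 (95% interval -0.38 to 0.24), and SERPINH1, the collagen chaperone, at 0.09 (SE 0.11).

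Of 17 tested elastic fibre genes, 0 were called and 1 was apart. ELN, which encodes elastin, measured 757, 790 and 413 CPM in the unanchored and 776, 679 and 831 CPM in the anchored libraries, with a log2 fold change of 0.22 (SE 0.26). Unanchored library 3 was again the low one, and without it the log2 fold change of ELN was -0.02. FBLN1, a fibulin of elastic fibres and basement membranes, measured 10.5, 13.8 and 7.26 CPM against 14.2, 13.9 and 14.0 CPM, and its log2 fold change was 0.42 (SE 0.23). The small leucine-rich proteoglycans, which regulate fibril assembly, had a median log2 fold change of -0.03 over 12 genes, 0 of them apart, and -0.087 to -0.0060 with single libraries left out. Among them DCN was at -0.06 (SE 0.10), LUM at -0.13 (SE 0.12), BGN at 0.16 (SE 0.14) and FMOD at 0.01 (SE 0.13).

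Tendon and matricellular genes had no common direction. Of 17 tested, 8 were above 0, 1 was apart and 0 were called. THBS4, a thrombospondin of tendon and muscle attachments, measured 269, 250 and 167 CPM without anchors and 292, 281 and 365 CPM with anchors. All 3 anchored libraries lay above the unanchored ones, and the log2 fold change was 0.45 (SE 0.19, 95% interval 0.07 to 0.84), with an unadjusted edgeR p of 0.0237 and an adjusted p of 1.00. POSTN, or periostin, measured 335, 277 and 349 CPM against 286, 261 and 254 CPM, a log2 fold change of -0.26 (SE 0.12) in groups that overlapped. TNC, a tenascin of loaded connective tissue, had a log2 fold change of 0.15 (SE 0.15).

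The transcription factors of tendon were interleaved between the groups. SCX measured 24.8, 30.6 and 15.9 CPM without anchors and 20.3, 21.2 and 27.4 CPM with anchors, with a log2 fold change of -0.03 (SE 0.19). MKX had a log2 fold change of -0.01 (95% interval -0.27 to 0.25). FN1, the fibronectin gene, was among the highest in counts, at 9594 to 13347 CPM, with a log2 fold change of -0.03 (SE 0.14).

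**Figure D3:**
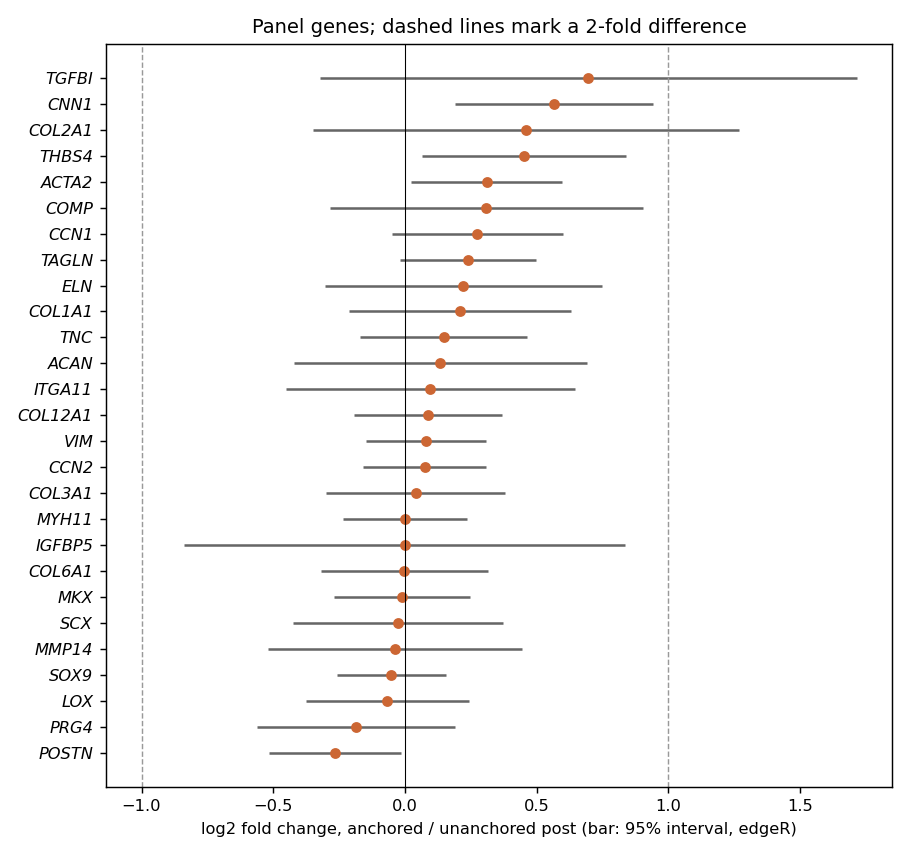
Log2 fold change (horizontal axis, anchored over unanchored post) of the 27 tested panel genes, with 95% intervals from edgeR as bars; dashed lines mark a 2-fold difference. Of these genes, CNN1, THBS4, ACTA2 and POSTN have intervals that leave out 0 before adjustment, and TGFBI and COL2A1 have intervals that reach past 2-fold.

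Most contractile genes had slightly higher values in the anchored libraries, although no member passed the test. Of 25 genes, 23 were tested, 21 had a log2 fold change above 0 and the median was 0.17, where 50.8% of all genes were above 0. Anchored libraries lay above all unanchored ones for 7 of the 23, against 4.99% of all genes, and below for 0. An unadjusted p under 0.05 was reached by 4 of them in the higher direction, against 2.04% of all genes, and by 0 in the lower. These are counts over a list chosen with earlier results of these data known, and the members share their libraries.

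Calponin CNN1, which binds actin in smooth muscle and myofibroblasts, measured 30.7, 22.6 and 19.2 CPM in the unanchored and 32.7, 42.0 and 33.2 CPM in the anchored libraries. The groups did not overlap, but unanchored library 1 lay close to the nearest anchored one. Its log2 fold change was 0.57 (SE 0.18, 95% interval 0.19 to 0.94), with an unadjusted edgeR p of 0.00475 and an adjusted p of 1.00. ACTA2, the α smooth muscle actin that marks myofibroblasts, measured 1037, 919 and 813 CPM against 1062, 1315 and 1056 CPM. Its groups were separated by a small gap and anchored library 2 was highest, with a log2 fold change of 0.31 (SE 0.14, 95% interval 0.02 to 0.60). Values of ACTA2 were not whole counts in libraries that held 86% of its counts, which leaves its level uncertain.

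TAGLN, an actin-binding protein of the same cells, measured 1601, 1555 and 1446 CPM without anchors and 1791, 1845 and 1795 CPM with anchors. The anchored libraries were close together and all above, and the log2 fold change was 0.24 (SE 0.13). ACTG2, the enteric smooth muscle actin, stood at 18, 13.5 and 11.9 CPM against 18.9, 28.9 and 18.1 CPM, a log2 fold change of 0.58 (SE 0.21). LMOD1, a leiomodin that nucleates actin filaments, was barely detected, at 1.97, 0.780 and 0.173 CPM against 2.76, 2.19 and 2.23 CPM, with a log2 fold change of 1.23 (SE 0.48). MYH11, the smooth muscle myosin heavy chain, did not share this order. It measured 23.1, 24.6 and 25.9 CPM without and 21.9, 26.9 and 24.7 CPM with anchors, a log2 fold change of 0.00 (SE 0.11). Non-muscle myosin MYH9 was at 0.04 (SE 0.11).

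The contractile list moved with the libraries that stood apart. Its median log2 ratio to the other 5 libraries was 0.18 in anchored library 2 and -0.25 in unanchored library 3, with -0.06 to 0.08 in the other 4. Without both libraries, 20 of 23 genes had a log2 fold change above 0 and the median was 0.08. Leaving out single libraries gave medians from 0.11 to 0.22. Pericytes and vascular muscle also express contractile genes. Of 10 genes listed for these mural cells, 7 were tested and 3 were above 0. The summed level of all 10, without the TMM factors, was 234 to 275 CPM in the anchored and 147 to 249 CPM in the unanchored libraries. The defining genes RGS5, MCAM and HIGD1B had 1, 0 and 0 counts, and NDUFA4L2, also a gene of low oxygen, was at 0.72 (SE 0.49). The part of these genes in the contractile values was not tested.

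Targets of serum response factor, several of which are also contractile genes, had a median log2 fold change of 0.11 over 18 tested genes. Of these, 15 were above 0, against 50.8% of all genes, 5 were apart in the higher direction, against 4.99%, and 0 were called. Without unanchored library 3 the median was 0.041, with 10 above 0. ARHGAP22, a Rac-regulating protein, measured 5.09, 6.44 and 5.71 CPM against 9.27, 7.85 and 7.33 CPM, a log2 fold change of 0.50 (SE 0.24). FOSB, an immediate early gene of the same list, was at -0.19.

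Focal adhesion adaptors, which link integrins to actin, had a median log2 fold change of 0.05. Of 34 tested, 22 were above 0, against 50.8% of all genes, and 0 were called. The number apart was 6 in the higher and 0 in the lower direction, against 4.99% and 4.33% of all genes. ZYX, or zyxin, which is recruited to stretched stress fibres, measured 101, 137 and 117 CPM in the unanchored and 153, 137 and 146 CPM in the anchored libraries. The closest pair of libraries was nearly level, and the log2 fold change was 0.30 (SE 0.11). VCL, the vinculin gene, gave -0.01 (SE 0.10), PTK2, the focal adhesion kinase, 0.00 (SE 0.13) and FERMT2, a kindlin, 0.04 (SE 0.09).

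The direction of the integrin genes depended on anchored library 2. Of 16 tested integrins and discoidin receptors, 4 were above 0, 1 was apart in the lower direction, 0 were called and the median log2 fold change was -0.07. Without anchored library 2, 9 of 16 were above 0 and the median was 0.015, and without both that library and unanchored library 3 the median was 0.043. ITGB1, the shared β1 chain of collagen and fibronectin receptors, measured 919, 846 and 862 CPM in the unanchored and 777, 807 and 864 CPM in the anchored libraries. The groups overlapped through anchored library 3, with a log2 fold change of -0.10 (SE 0.10). ITGA5, the fibronectin receptor chain, had the opposite sign, at 214, 248 and 220 CPM against 271, 229 and 292 CPM and a log2 fold change of 0.22 (SE 0.11). ITGA10, a collagen-binding chain of chondrocytes, was at 41.1 CPM in anchored library 2 and at 59.4 to 66.6 CPM in the other 5.

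Genes of the YAP and TAZ pathway showed no common direction. Of 29 tested, 11 were above 0, the median log2 fold change was -0.04 and 0 were called. CCN2, or CTGF, a widely used target of this pathway, measured 2039, 1918 and 1706 CPM without and 1839, 1889 and 2235 CPM with anchors. The libraries were interleaved, and the log2 fold change was 0.07 (95% interval -0.16 to 0.31). CCN1, or CYR61, had 474, 446 and 302 CPM against 446, 512 and 520 CPM and a log2 fold change of 0.28 (SE 0.16). ANKRD1, another common target, had 4 counts in the 6 libraries and was not tested. Among Hippo pathway members, the kinase LATS2 was at -0.42 (SE 0.20) in overlapping groups, and WWC2, which activates the pathway, was at -0.24 (SE 0.11) in groups that did not overlap. PIEZO1, a stretch-gated channel, had a log2 fold change of 0.14 (SE 0.13).

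All tissues received TGF-β3, and genes of this pathway were centred on 0. Of 25 tested, 12 were above 0, the median log2 fold change was 0.00, 0 were called and 1 was apart, in the lower direction. SKIL, a feedback repressor of SMAD signalling, measured 17.1, 18.5 and 25.8 CPM in the unanchored and 17.5, 11.9 and 14.8 CPM in the anchored libraries. The groups overlapped, and the log2 fold change was -0.48 (SE 0.16), with an unadjusted edgeR p of 0.00603. INHBB, an activin subunit, was apart, at 9.68, 8.97 and 10.7 CPM against 6.90, 4.20 and 8.90 CPM and a log2 fold change of -0.52 (SE 0.22). SMAD7, a feedback inhibitor, was at 0.00 (SE 0.19). TGFBI, a target of the pathway, was highest in anchored library 2 at 18.3 CPM and between 5.53 and 11.8 CPM in the others, with a log2 fold change of 0.70 (SE 0.49).

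Growth factors and the IGF axis had a median log2 fold change of -0.05 over 33 tested genes, 0 of which were called. FGF2, a fibroblast growth factor, measured 92.5, 80.2 and 113 CPM without anchors and 80.2, 69.0 and 72.2 CPM with anchors. The highest anchored library met the lowest unanchored one, and the log2 fold change was -0.37 (SE 0.12) with an unadjusted edgeR p of 0.00382. IGFBP3, which sequesters insulin-like growth factors, was lower in all 3 anchored libraries, at 714, 778 and 592 CPM against 553, 583 and 507 CPM. Its log2 fold change was -0.34 (SE 0.14). ANGPTL2, a secreted angiopoietin-like protein, was apart in the other direction, at 0.23 (SE 0.10).

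Glycolysis had the highest median of the 34 lists on tissue processes, although no member passed the test. Of 20 genes, 18 were tested, 17 had a log2 fold change above 0 and the median was 0.28. The anchored libraries lay above the unanchored ones for 5 and below for 0, and 4 reached an unadjusted p under 0.05 in the higher direction, beside the background of 4.99% and 2.04%. GPI, which converts glucose 6-phosphate to fructose 6-phosphate, measured 283, 295 and 271 CPM in the unanchored and 344, 386 and 349 CPM in the anchored libraries. The groups were well separated, with a log2 fold change of 0.34 (SE 0.15, 95% interval 0.04 to 0.65). HK1, the hexokinase that starts the pathway, measured 37.1, 31.6 and 34.8 CPM against 44.0, 40.6 and 44.8 CPM, also without overlap, at a log2 fold change of 0.32 (SE 0.12).

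PFKM, a phosphofructokinase subunit, was apart as well, at 11.3, 11.7 and 10.5 CPM against 16.6, 14.8 and 13.6 CPM and a log2 fold change of 0.41 (SE 0.15). For LDHA, which makes lactate, the values were 731, 727 and 641 CPM against 763, 1147 and 783 CPM. Anchored library 2 was far above the rest, and the log2 fold change was 0.36 (SE 0.17). LDHA values were not whole in libraries with 94% of its counts. GAPDH measured 1343, 1427 and 1256 CPM against 1511, 1865 and 1407 CPM in overlapping groups, with a log2 fold change of 0.25 (SE 0.20). Glucose transporter SLC2A1 stood at 0.05 (SE 0.11), and the lactate transporter SLC16A3 at 0.61 (SE 0.36).

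Hypoxia genes had a median log2 fold change of 0.18, with 17 of 21 tested genes above 0 and 0 called. The number apart was 2 in the higher and 1 in the lower direction, against 4.99% and 4.33% of all genes. CA9, a carbonic anhydrase induced by low oxygen, measured 10.3, 15.0 and 5.71 CPM without and 9.66, 21.6 and 9.42 CPM with anchors. Its values were interleaved except for the high anchored library 2. HIF1A, the oxygen-regulated transcription factor itself, was apart in the lower direction, at 463, 410 and 483 CPM against 398, 394 and 410 CPM, with a log2 fold change of -0.17 (SE 0.11). VEGFA, a main hypoxia target, had a log2 fold change of -0.23 (SE 0.21).

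Redox and iron genes had a median log2 fold change of 0.11. Of 23 tested, 20 were above 0, against 50.8% of all genes, and 0 were called. The number apart in the higher direction was 6, against 4.99% of all genes. PRDX1, a peroxiredoxin that removes hydrogen peroxide, measured 1991, 2106 and 2031 CPM against 2173, 2978 and 2197 CPM, a log2 fold change of 0.26 (SE 0.14). NQO1, a quinone reductase under NRF2 control, measured 68.3, 67.1 and 65.9 CPM against 70.6, 88.6 and 77.1 CPM, at 0.23 (SE 0.12). In both genes the anchored groups lay above the unanchored ones by a small gap and anchored library 2 was highest.

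Anchored library 2 was the highest of the 6 libraries over each of these lists. Its median log2 ratio to the other 5 was 0.28 for hypoxia genes, 0.25 for glycolysis and 0.18 for redox and iron, and unanchored library 3 was lowest for glycolysis at -0.28. Without anchored library 2, the median log2 fold change was 0.20 for glycolysis, 0.04 for hypoxia genes and 0.04 for redox and iron, with 17 of 18, 14 of 21 and 15 of 23 genes above 0. Without both libraries the medians were 0.10, 0.03 and 0.06. The part of these libraries in the list values was not tested further.

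**Figure D4:**
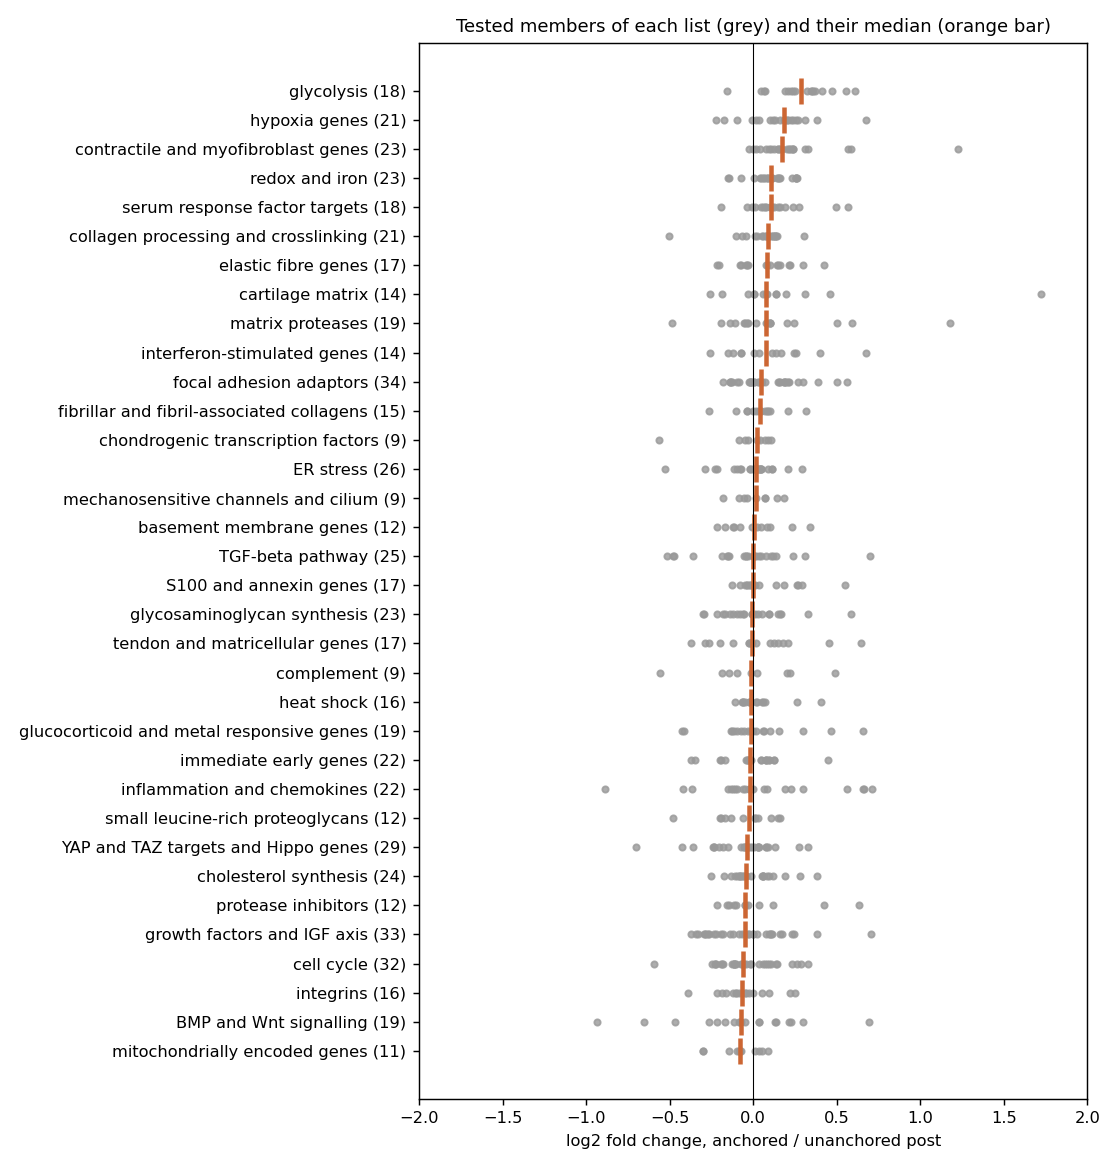
Log2 fold change (horizontal axis, anchored over unanchored post) of the tested members of 34 gene lists as grey points, with each list's median as an orange bar and the number tested in brackets. List medians run from -0.08 for mitochondrially encoded genes to 0.28 for glycolysis, and most lists straddle 0.

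**Figure D5:**
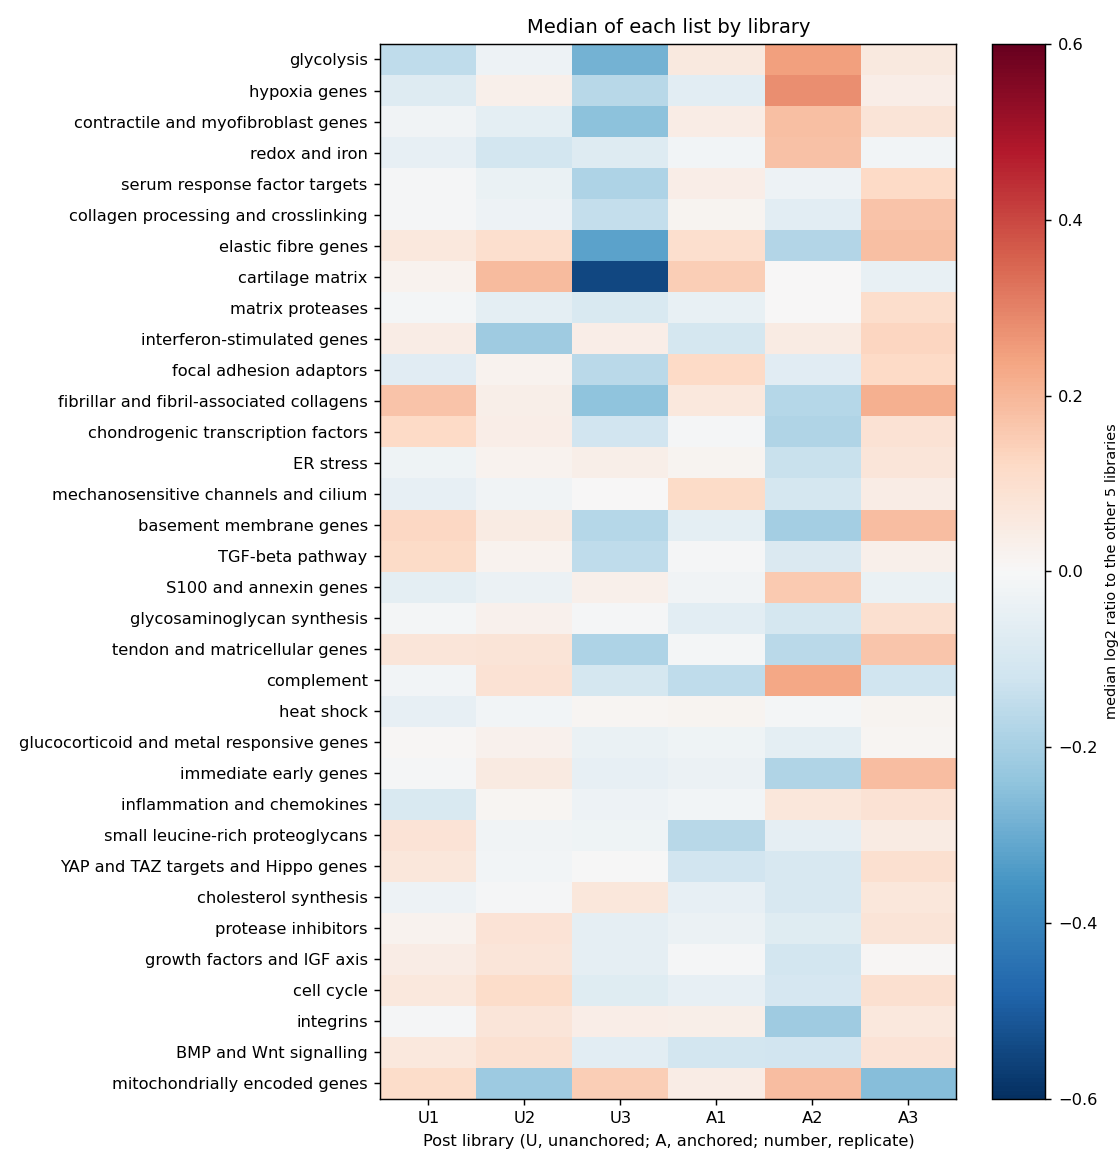
Median log2 ratio of each list (rows, in the order of the list medians) in 1 post library (columns) to the mean of the other 5, on a colour scale from -0.6 to 0.6. The darkest cell is cartilage matrix in unanchored library 3, at -0.55, and the highest is hypoxia genes in anchored library 2, at 0.28.

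The 12 genes with the smallest unadjusted p among those higher in the anchored libraries, without overlap and with at least 10 CPM in a group, belonged to no single pathway. They included IRAG1, MT1A, DDX41, HSPB1, CASTOR1, LRRC17, PLEKHA4, SHKBP1, TJAP1, ABCB6 and KDM4C, with log2 fold changes from 0.40 to 0.61. IRAG1, a substrate of cGMP-dependent kinase in smooth muscle, measured 6.73, 6.83 and 8.30 CPM without and 11.8, 10.4 and 11.1 CPM with anchors. Its groups were clearly separated at a low level, with a log2 fold change of 0.61 (SE 0.17). HSPB1, a small heat shock protein that stabilises actin, measured 328, 378 and 294 CPM against 412, 463 and 448 CPM, a log2 fold change of 0.40 (SE 0.12) with an unadjusted edgeR p of 0.00277.

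MT1A, a metal-binding metallothionein, measured 126, 114 and 93.7 CPM against 140, 180 and 141 CPM, at 0.46 (SE 0.13). Its values were not whole in libraries with 70% of its counts, and metallothionein genes are near-identical copies, so its level is uncertain. LRRC17, a secreted leucine-rich repeat protein, had 35.8, 30.6 and 19.7 CPM against 38.2, 53.2 and 40.3 CPM and a log2 fold change of 0.61 (SE 0.19). For both genes anchored library 2 was the highest and unanchored library 3 the lowest.

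The 12 lower genes chosen in the same way included PHF3, BDP1, FAM216A, SLC25A33, CREBRF, ZC3HAV1, PALMD, RWDD4, GAS1, FMR1 and TBC1D15, with log2 fold changes from -0.82 to -0.31. PHF3, which binds RNA polymerase II, measured 71.2, 62.0 and 71.1 CPM in the unanchored and 52.0, 52.4 and 51.7 CPM in the anchored libraries. The anchored values were nearly identical, and the log2 fold change was -0.39 (SE 0.10) with an unadjusted edgeR p of 0.00062. BDP1, a subunit of the RNA polymerase III factor TFIIIB, measured 21.3, 16.8 and 24.6 CPM against 16, 10.6 and 11.9 CPM, at -0.72 (SE 0.18). GAS1, a cell surface co-receptor for hedgehog ligands, measured 84.3, 80.2 and 75.7 CPM against 61.9, 62.7 and 61.5 CPM. Its groups were compact and did not overlap, with a log2 fold change of -0.37 (SE 0.12). FAM216A had 26.3, 43.1 and 36.3 CPM against 24.1, 15.5 and 20.0 CPM, a log2 fold change of -0.82 (SE 0.21).

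The middle region of the same kinds of tissue gave a second comparison on other libraries, although the labels do not say whether post and middle pieces came from the same tissues. There too 0 of 11834 genes (0%) were called, with 366 (3.09%) at an unadjusted p under 0.05 and 894 (7.55%) without overlap. Post and middle log2 fold changes correlated with Pearson's r of 0.319 across the 7647 genes with at least 10 CPM, a description across genes that share libraries, and with r of 0.156 without anchored middle library 2, the shallowest molded library at 2986944 counts. Of the genes without overlap in both regions, 79 had the same direction and 18 the opposite, out of 11834 tested. Genes without overlap were 9.32% of all genes in the post and 7.55% in the middle. The split was not tested and is not given without anchored middle library 2.

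Several middle values were also smaller without that library. Contractile genes had a median of 0.15 in the middle with 19 of 23 above 0, and 0.069 with 17 above 0 without anchored middle library 2. Glycolysis had a median of 0.33 there with 14 of 18 above 0, and 0.041 with 13 above 0 without it. CNN1 measured 24.1, 19.9 and 17.4 CPM in the unanchored middle and 23.2, 41.3 and 23.2 CPM in the anchored middle. Its log2 fold change was 0.42 in the middle, or 0.17 without that library, beside 0.57 in the post. ACTA2 stood at 0.28, or 0.13 without it, beside 0.31, and GPI at 0.35, or 0.032 without it, beside 0.34.

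COL2A1 measured 77.2, 88.5 and 30.7 CPM in the unanchored and 104, 277 and 85.5 CPM in the anchored middle. Its log2 fold change there was 1.19, or 0.53 without anchored middle library 2, beside 0.46 in the post. Cartilage matrix had a median of 0.35 in the middle, or 0.14 without it, beside 0.08 in the post. GAS1 was at -0.29, or -0.17 without it, beside -0.37. Some genes had unlike values in the regions, such as PFKM at -0.30 in the middle beside 0.41, and FMR1 at 0.27 beside -0.31. The test of the difference between the regions called 0 genes (0%), with 223 (1.88%) at an unadjusted p under 0.05, so a dependence of anchoring on region was not detected for any of these genes.

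Single genes also moved with unanchored library 3, without which THBS4 was at 0.27, CNN1 at 0.42 and CCN1 at 0.10. Leaving out each post library in turn gave the following ranges of list medians. Glycolysis stayed between 0.20 and 0.32 and contractile genes between 0.11 and 0.22. Focal adhesion adaptors ran from 0.025 to 0.097, growth factors from -0.090 to -0.035 and YAP and TAZ genes from -0.086 to -0.017. The sign of the median differed between settings for elastic fibre genes, at -0.021 to 0.13, tendon and matricellular genes, at -0.023 to 0.078, and the TGF-β pathway, at -0.054 to 0.036.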

How the data were processed

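Counts and CPM per gene for the 15 libraries were deposited in 1 table. Per the labels' protocols, poly-A RNA was primed with oligo-dT carrying UMIs and tagmented. STAR 2.7, SAMtools 1.21, Subread 2.1.1 with featureCounts and MultiQC 1.33 are named in the submitters' processing notes. The sources used here do not give the genome build, annotation, counting settings, strand or use of UMIs. The deposited counts are expected counts that need not be whole, with non-whole values holding 44.0% to 47.4% of counts in the post libraries. They were rounded for testing. The CPM deposited by the authors equal the counts divided by the library total and scaled, and were used only to check the table. The table's 92 ERCC rows were left out of 38093, leaving 38001.

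In R 4.3.3, edgeR 4.0.16 (filterByExpr with a minimum count of 10, TMM, glmQLFit, glmQLFTest) was fitted to all 15 libraries in 5 groups, which share 1 estimate of the spread, with no covariate. It left 11834 genes, over which p-values were adjusted by Benjamini-Hochberg at a threshold of 0.05. The 95% intervals are from the fitted standard errors. The fit was tested on simulated data. Alternatives used DESeq2 1.42.0 and limma 3.58.1 (voom), other scalings, filters and subsets of libraries. An exact permutation test of 3 against 3 libraries cannot go below p = 0.1 and was not used. Members and the 43 gene lists were chosen with earlier results of these data known. Genes named by rule are the 12 per direction with the smallest p that had a symbol, no overlap and at least 10 CPM in a group, each list's smallest p, and a panel of 28 genes. Other list members named were chosen after their values were seen. Replicate numbers were not used to pair the libraries, and the labels do not say whether they do. Some genes chosen by the rule are not reported here.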

Additional observations from a re-analysis of the deposited data

How the results depend on the processing

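No gene was called in the post comparison under the other planned settings: only the post or only the molded libraries, DESeq2 size factors, library totals, a CPM filter, unrounded counts, DESeq2, limma-voom and each library left out. With no filter on low counts, edgeR called 21 genes (14 higher, 7 lower) of 21304, with 783 at an unadjusted p under 0.05, 28 in the middle and 3 for the difference between regions. The prior degrees of freedom were then infinite, against 13.6 with the filter, so a gene's own spread between libraries no longer counted. These 21 had all been tested with the filter, and among the genes named above they include CNN1 (adjusted p = 0.0317), THBS4 (0.0351), MT1A (0.0351), LRRC17 (0.00552), SLC16A3 (0.00573), BDP1 (0.0092) and FAM216A (4.17e-05). Leaving out libraries in turn kept the count at 0 in all 3 comparisons. The post comparison then had 277 genes (without unanchored library 3) to 663 (without unanchored library 2) at an unadjusted p under 0.05 and a smallest adjusted p of 0.125. Leaving out anchored library 2 and unanchored library 3 together, chosen after seeing the data, gave 0 calls and 383 such genes.

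With a replicate block, 0 genes were called and 467 had an unadjusted p under 0.05. Deviations of anchored and unanchored post libraries with the same number correlated at -0.046, -0.135 and -0.065, so the numbers were not taken as pairs. Between post and middle they were 0.092, 0.107 and 0.264 in unanchored and -0.029, 0.079 and 0.138 in anchored tissue. For unlike numbers they ran from -0.169 to 0.062 in unanchored and from -0.158 to 0.060 in anchored tissue. The tests between post and middle took the libraries as unpaired, and whether their pieces shared a tissue was not tested. Of 1490 values for 88 named genes under the alternatives, 1446 kept their direction without a call, and 37 for 15 genes changed sign. The cause was not tested. Leave-one-out log2 ranges were -0.24 to 1.79 for HBB, -0.85 to 0.030 for ACTA1, -0.11 to 0.0033 for SOX9, -0.14 to 0.31 for ACAN, -0.14 to 0.19 for COL3A1, -0.13 to 0.14 for COL6A1, -0.011 to 0.20 for COL12A1, -0.25 to 0.18 for SCX, -0.088 to 0.058 for MKX, -0.021 to 0.38 for ELN, -0.29 to 0.038 for LOX, -0.071 to 0.068 for MYH11, -0.018 to 0.13 for CCN2, -0.37 to 0.32 for IGFBP5 and -0.27 to 0.076 for MMP14. MYH11 was at 0.000194 with DESeq2 size factors in edgeR, 0.0033 with no filter and 0.000259 with DESeq2. COL6A1 was at 0.000504 with no filter, and SCX at 0.017 with limma-voom. IGFBP5 was at 0.0023 with no filter, 0.000958 with DESeq2, 0.13 with limma-voom and 0.063 with the replicate block.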

Other observations

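Stress, immune and proliferation genes in the post region, which are not described above, also gave 0 calls. HSPB1's relative CRYAB, a small heat shock protein, measured 196, 201 and 194 CPM without anchors and 219, 274 and 215 CPM with anchors. It was apart, at a log2 fold change of 0.26 (SE 0.12), while the 16 heat shock genes as a whole had a median of -0.02. Of 22 tested inflammation genes, 5 were apart in the higher and 2 in the lower direction, against 4.99% and 4.33% of all genes. The adhesion molecule ICAM1 measured 3.45, 3.32 and 2.25 CPM against 4.14, 4.75 and 5.24 CPM, a log2 fold change of 0.66 (SE 0.26), and IL6 was at 0.56 (SE 0.28) at 5.25 to 9.29 CPM. LIF, a cytokine of the IL-6 family, lay the other way at -0.89 (SE 0.40), at 0.789 to 1.73 CPM. The interferon-response factor IRF1 measured 2.13, 2.54 and 2.42 CPM against 3.55, 3.29 and 4.32 CPM, yet the 14 tested interferon-stimulated genes had a median of 0.08.

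Among cell cycle genes, 12 of 32 were above 0 and the median was -0.06. MCM4, a subunit of the replicative helicase, was apart at 0.33 (SE 0.15). CDKN1A, the inhibitor p21, ranged from 11.0 CPM in anchored library 2 to 41.2 CPM in unanchored library 3, and its log2 fold change was -0.60. Xylosyltransferase XYLT2, which starts glycosaminoglycan chains, measured 9.35, 8.39 and 7.09 CPM against 13.8, 13.0 and 11.0 CPM, at 0.59 (SE 0.19), in a list of 23 with a median of -0.01. Cholesterol synthesis had a median of -0.04 over 24 genes and ER stress one of 0.02 over 26. WNT2B, a Wnt ligand, was apart in the lower direction at -0.93 (SE 0.35), with 1.95 to 3.46 CPM without and 1.18 to 1.77 CPM with anchors, among 19 BMP and Wnt genes with a median of -0.08. RUNX1, a transcription factor, was at a low level, with 3.77, 4.49 and 3.80 CPM without anchors and 3.35, 2.19 and 2.62 CPM with anchors. Its log2 fold change was -0.57 (SE 0.27) in the post and -0.57 in the middle. The 9 tested genes of its list had a median of 0.02 in the post.

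Anchored library 2 differed from its group in named genes. NDUFA4L2, a mitochondrial protein induced by low oxygen, was at 198 CPM there and at 101 and 97.6 CPM in the other anchored libraries. SFRP4, a secreted Wnt antagonist, was at 246 CPM against 127 and 125 CPM, and CHI3L1, a chitinase-like protein of cartilage cells, at 119 CPM against 71.8 and 64.9 CPM. COL4A1, a basement membrane collagen, was at 10.8 CPM against 19.1 and 27.0 CPM, and the proteoglycan CSPG4 at 47.7 CPM against 88.3 and 90.2 CPM. These genes were picked because they differed in this library.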
